A study of Homo sapiens with 32 samples.

Results

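The integrated stress response was followed through 10 genes: the bZIP transcription factors ATF4, ATF3, ATF5, DDIT3 (which encodes CHOP) and CEBPB, and the effectors TRIB3, CHAC1, DDIT4, SESN2 and PPP1R15A. They were chosen by gene symbol as known factors and effectors of the response, with earlier results of these data known. The shares of all genes set beside their counts are therefore a description. All 10 were found among the 22610 entries of the FPKM table (fragment counts scaled to exon length and to library size), and all 10 were among the 12621 entries with a mean FPKM of at least 1 that were tested. RNA-Seq was performed on SK-N-BE(2) cells, an established human neuroblastoma line with MYCN amplification, treated with 20 μM CBD (cannabidiol, the non-intoxicating cannabinoid of the cannabis plant) in ethanol, or with 0.1% ethanol as vehicle. Cells were collected at 3, 6, 12 and 24 h, with 4 replicates in each of the 8 groups, which gave 32 samples, and no group carried a genetic change beyond those of the line. Treatments were prepared in quadruplicate, but nothing states that replicates came from separate passages or days, so the p-values measure only the spread between these samples.

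In the integrated stress response, any of 4 kinases phosphorylates the alpha subunit of the translation initiation factor eIF2, which lowers general protein synthesis while the ATF4 message is translated more. ATF4 then activates genes of amino acid supply, and ATF4 with CHOP activates further factors and effectors, among them a phosphatase subunit that reverses the phosphorylation and inhibitors of the growth kinase complex mTORC1. ATF4 is regulated to a large part at translation, which mRNA levels do not show. The kinases are known to sense amino acid shortage, endoplasmic reticulum stress, double-stranded RNA and heme loss.

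ATF4 binds with C/EBP partners to composite sites with the letters TGATGNAA, so the members' promoters were searched for them. RefSeq promoters (GRCh38.p14, 250 bases before to 50 bases after a transcription start) were matched for all 10 genes, with 18 starts among them. TGATGNAA on either strand was found at 2 of the 18 starts, beside 3.62% of all 35116 promoters and 1.83% of the 13258 promoters of genes tested here. Both are printed because they belong to the effector with the largest early difference and to an ATF4 partner, with the match in capitals. The match of CHAC1 lies at -209 to -202 from the start, in reverse orientation, in chr15:40953221-40953520 (+ strand). The match of ATF3 lies at -191 to -184 from the upstream of its 2 starts, in chr1:212565157-212565456 (+ strand).
CHAC1: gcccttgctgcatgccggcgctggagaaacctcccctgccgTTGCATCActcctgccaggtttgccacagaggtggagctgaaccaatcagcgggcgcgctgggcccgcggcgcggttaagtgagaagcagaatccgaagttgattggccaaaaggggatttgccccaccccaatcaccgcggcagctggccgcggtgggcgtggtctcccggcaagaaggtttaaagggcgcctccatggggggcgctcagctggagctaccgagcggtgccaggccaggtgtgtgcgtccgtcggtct
ATF3: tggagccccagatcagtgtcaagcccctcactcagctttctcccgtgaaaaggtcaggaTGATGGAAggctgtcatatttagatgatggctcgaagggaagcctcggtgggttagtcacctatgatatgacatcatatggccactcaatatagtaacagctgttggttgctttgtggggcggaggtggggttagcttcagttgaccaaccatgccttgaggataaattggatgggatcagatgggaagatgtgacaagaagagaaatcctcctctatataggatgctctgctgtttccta
The cyclic AMP response element TGACGTCA was found at 1 of the 18 starts, that of PPP1R15A at -58 to -51, beside 1.85% of all promoters. The XBP1 and ATF6 element TGACGTGG was found at 0 of the 18 starts, beside 0.729% of all promoters, and the antioxidant response element letters TGACNNNGC at 5 of 18, beside 13.4%. Of these 5, 3 are overlapping starts of TRIB3 that hold the same match, and the others belong to PPP1R15A and CEBPB. A match is a string of letters only, and other motifs, other distances and binding were not examined.

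FPKM do not hold the number of reads. The relative depth of the samples, estimated from the steps of low values, ran from 0.787 to 1.20, with medians of 0.925 with CBD and 1.05 with vehicle at 3 h, the time with the clearest gap. With relative depth in the model 6, 5, 6 and 9 of the 10 genes were called at 3, 6, 12 and 24 h, against 5, 5, 6 and 9 without it. The neuroblastoma markers PHOX2A, HAND2, GATA3, TH and MYCN were at 112 FPKM or more in every sample, ISL1 was at a median of 71.7 and DBH was at 3.74 or more. Of these, MYCN was called higher with CBD at 24 h, by 0.54 on the log2 scale (2257 against 1554 FPKM), while DBH and ISL1 (54.9 against 71.9 FPKM) were called lower. Markers of leukocytes, epithelium and endothelium summed to 1.73 to 4.73 FPKM, with PTPRC, KRT5, KRT14, PECAM1 and CDH5 at 0.11 FPKM or less in every sample and only EPCAM above 1. Their sum was above vehicle in every CBD sample at 12 h (2.58 to 2.99 against 1.96 to 2.16 FPKM) and 24 h (4.02 to 4.73 against 3.20 to 3.56), with EPCAM called higher by 0.30 and 0.28 on the log2 scale. Mesenchymal markers, with PRRX1, COL1A2 and YAP1 at 0.0305 FPKM or less, summed to 10.4 to 11.4 FPKM with CBD and 8.03 to 8.77 with vehicle at 24 h, with SNAI2 called higher (7.50 against 5.33 FPKM). The part of these shifts in the results below was not tested.

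Between 5 and 9 of the 10 stress regulators were called at each time, all of them higher with CBD than with vehicle, and DDIT4 was called at no time. A gene was called at an adjusted p under 0.01 in limma's test on log2(FPKM + 1), fitted on all 12621 genes. At 3 h, 5 of the 10 genes were called, all higher: ATF4, ATF3, CHAC1, SESN2 and CEBPB, beside 2.46% of all genes called and 1.18% called higher. At 6 h, 5 were called, all higher: ATF4, DDIT3, CHAC1, SESN2 and CEBPB, beside 10.2% of all genes called and 4.07% called higher. At 12 h, TRIB3 was called as well, which made 6, beside 20.1% and 8.85%. At 24 h, 9 were called, all higher, beside 42.1% of all genes called and 20.8% called higher, and DDIT4 was the exception. The median log2 fold change of the 10 genes was 0.40, 0.36, 0.39 and 0.78 at 3, 6, 12 and 24 h, while the median of all genes tested stayed within 0.01 of 0 at each time. The 4 CBD samples lay wholly above the 4 vehicle samples for 7, 7, 7 and 9 of the genes at 3, 6, 12 and 24 h, beside 5.52%, 8.46%, 13.4% and 25.1% of all genes tested.

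**Figure D1:**
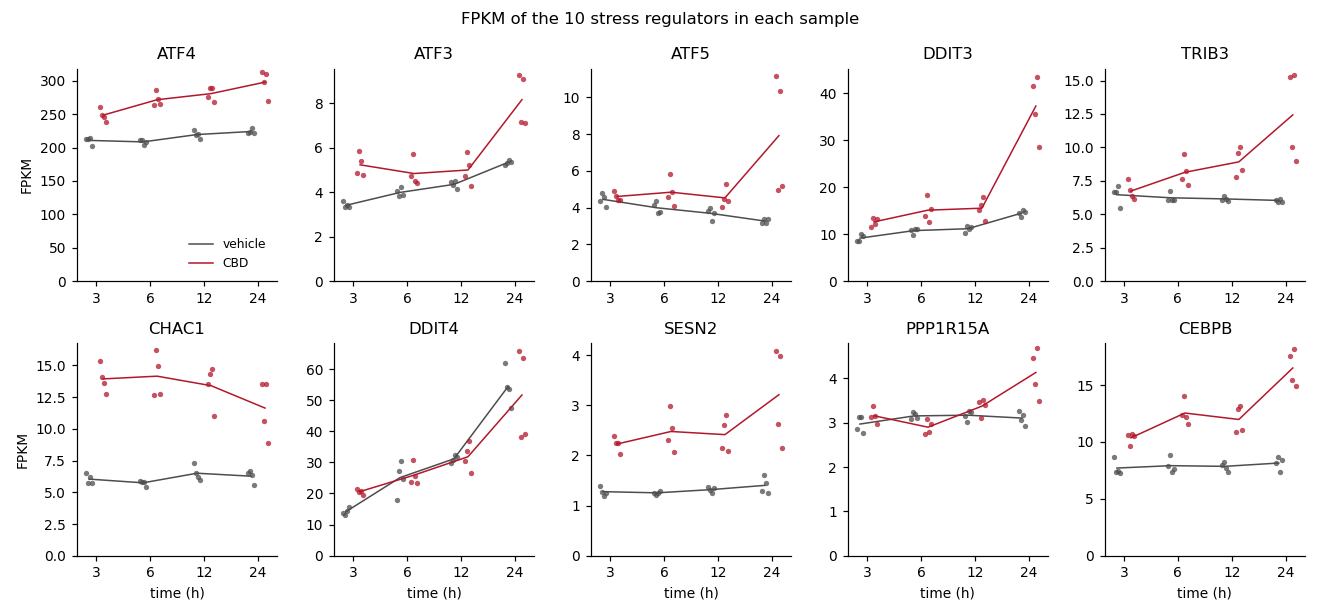
FPKM of each of the 10 genes (y axis, from 0) against time in hours (x axis, evenly spaced), with 1 point per sample and lines through the means of 4 replicates, red for CBD and grey for vehicle. CHAC1, CEBPB and SESN2 were separated from 3 h on, DDIT3 and ATF5 moved apart mainly at 24 h, and DDIT4 rose in both treatments.

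When each time point was fitted alone, 3, 4, 5 and 8 of the 10 genes were called at 3, 6, 12 and 24 h. That fit leaves fewer degrees of freedom and takes the spread from the groups of that time only. The part of each in the lost calls was not tested. ATF4, ATF3 and CEBPB were then not called at 3 h (adjusted p = 0.0259, 0.0134 and 0.0314, each the highest of 18 alternatives, the lowest being 2.66e-05, 9.25e-05 and 0.000519), nor DDIT3 at 6 h and 12 h (0.0353 and 0.0137) and ATF5 at 24 h (0.0125), while DDIT4 was called at 3 h (0.00956, in a range up to 0.091).

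ATF4 (chr22:39915700-39918688 on GRCh37, + strand), the central factor of the response, was by far the most abundant of the 10 messages per length, with a mean of 245 FPKM over the 32 samples and a higher mean than 98.0% of the genes tested. At 3 h the CBD replicates were at 261, 250, 246 and 238 FPKM and the vehicle replicates at 213, 212, 215 and 203. At 24 h they were at 313, 299, 311 and 270 with CBD and at 221, 223, 230 and 222 with vehicle. The groups did not overlap at any of the 4 times. The ATF4 message was higher by 0.24, 0.38, 0.35 and 0.41 on the log2 scale at 3, 6, 12 and 24 h (SE 0.037, adjusted p = 0.000182, 2.21e-08, 3.46e-08 and 7.1e-10 from limma). The 24 h value is a ratio of mean FPKM of 1.33, so the message of the central factor changed by a smaller factor than those of CHAC1, SESN2, CEBPB and DDIT3 at that time.

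DDIT3 (chr12:57910371-57915520, - strand) encodes CHOP, a factor of prolonged stress that is linked to cell death. Its CBD replicates at 24 h were at 41.6, 35.6, 43.5 and 28.5 FPKM, and its vehicle replicates at 14.5, 13.7, 15.1 and 14.7. Every CBD value was well above every vehicle value, and the mean was 2.57 times that of vehicle. This was the largest difference of any of the 10 genes at 24 h (log2 fold change 1.29, SE 0.11, adjusted p = 1.1e-10 from limma). At 3, 6 and 12 h the CBD means were 12.6 ± 0.943, 15.1 ± 2.47 and 15.5 ± 2.16 FPKM (SD, n = 4) and the vehicle means 9.15 ± 0.734, 10.8 ± 0.574 and 11.2 ± 0.649. The groups were separate at each of these times, with log2 fold changes of 0.42, 0.44 and 0.44, of which the first was not called (adjusted p = 0.0147, 0.00371 and 0.00236). The calls at 6 h were lost without CBD 6 h replicate 2 (adjusted p = 0.0257) or vehicle 6 h replicate 2 (0.0141), and at 12 h without CBD 12 h replicate 3 (0.0148) or vehicle 12 h replicate 1 (0.0108), with ranges over all alternatives of 0.00117 to 0.0353 at 6 h and 0.000636 to 0.0148 at 12 h. Of the annotated exonic bases of DDIT3 on GRCh37, 355 of 1307 (27.2%) are shared with MARS1 on the other strand (named MARS in the table), at a median of 68.8 FPKM. The reads were stranded per the study's methods, but whether strand was used in computing FPKM is not given in the sources used here. The log2 fold change of MARS was 0.09, 0.24, 0.30 and 0.26 at 3, 6, 12 and 24 h. It was called from 6 h on (adjusted p = 6.1e-05, 7.1e-07 and 2.6e-06 from limma). The part of MARS reads in the DDIT3 values was not tested.

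CEBPB (chr20:48807367-48809205, + strand), a C/EBP factor that pairs with ATF4 and with CHOP, was called at all 4 times. Its CBD replicates at 24 h were at 17.5, 15.4, 18.1 and 14.9 FPKM, against 8.12, 8.71, 7.35 and 8.40 in vehicle, a ratio of means of 2.03. The log2 fold change was 0.39, 0.60, 0.55 and 0.93 at 3, 6, 12 and 24 h (SE 0.07, adjusted p = 0.00104, 4.79e-07, 9.92e-07 and 1.97e-11 from limma). The antisense transcript CEBPB-AS1, which overlaps 12.6% of the exonic bases of CEBPB, was at 0.422 FPKM or less in every sample.

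ATF3 (chr1:212738676-212794119, + strand), an early stress factor that represses or activates its targets, was called at 3 h and at 24 h only. At 3 h its CBD replicates were at 4.87, 5.87, 5.403 and 4.785 FPKM against 3.59, 3.32, 3.41 and 3.32 in vehicle. The vehicle level then rose, to 5.34 ± 0.0915 FPKM at 24 h, while the CBD mean stayed at 4.84 and 4.999 at 6 and 12 h, and the differences at 6 and 12 h were not called. The log2 fold change was 0.50, 0.22, 0.16 and 0.52 at 3, 6, 12 and 24 h (SE 0.077, adjusted p = 0.000178, 0.0438, 0.126 and 2.67e-06 from limma). At 12 h the groups overlapped, with CBD at 4.27 to 5.80 FPKM and vehicle at 4.15 to 4.49.

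ATF5 (chr19:50431959-50437192, + strand), a factor of mitochondrial and proteotoxic stress, was called at 24 h only. Its log2 fold changes at 3, 6 and 12 h were 0.04, 0.22 and 0.24 (95% intervals -0.27 to 0.35, -0.09 to 0.53 and -0.07 to 0.54). At 24 h its CBD replicates were at 11.2, 4.96, 10.3 and 5.18 FPKM and its vehicle replicates at 3.16, 3.39, 3.14 and 3.37. Replicates 1 and 3 were about at the same high level, replicates 2 and 4 at a lower one, and all 4 were above vehicle. The log2 fold change at 24 h was 0.99 (SE 0.15, adjusted p = 3.97e-06 from limma), with a range of 1.81e-07 to 0.0125 over 17 alternatives, of which only the fit of that time alone lost the call. The SD at 24 h was 3.30 FPKM with CBD and 0.137 with vehicle, and the fit shares 1 estimate of spread over all 8 groups. Of its exonic bases, 19.5% are shared with NUP62 on the other strand, which was at a median of 36.7 FPKM and differed by -0.25 on the log2 scale at 24 h.

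**Figure D2:**
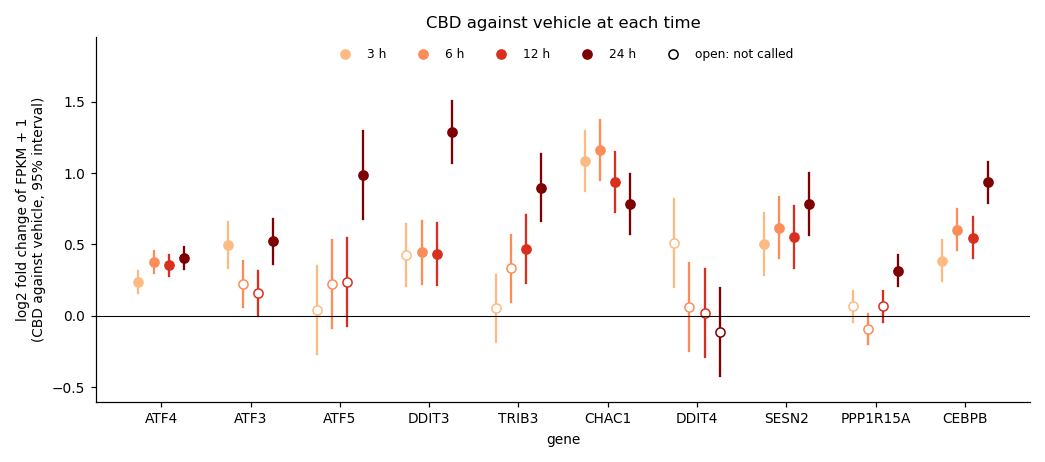
Log2 fold change of FPKM + 1, CBD against vehicle (y axis), for each of the 10 genes (x axis) at 3, 6, 12 and 24 h, with bars for 95% intervals from limma over 4 replicates per group and filled points for genes called at an adjusted p under 0.01. CHAC1 had the largest difference at 3, 6 and 12 h and DDIT3 at 24 h, and every DDIT4 point is open. The intervals rest on 1 estimate of spread per gene over all 8 groups.

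CHAC1 (chr15:41245160-41248710, + strand), an enzyme that degrades glutathione, had the largest log2 fold change of the effectors at 3, 6 and 12 h. At 24 h TRIB3 had it on the scale of FPKM + 1, while the ratio of means was larger for SESN2 (2.29) than for TRIB3 (2.06). At 3 h its CBD replicates were at 15.3, 14.1, 13.6 and 12.7 FPKM and its vehicle replicates at 6.50, 5.71, 6.20 and 5.76, a ratio of means of 2.31 with a wide gap between the groups. At 24 h they were at 13.6, 10.6, 13.5 and 8.89 with CBD and at 6.54, 6.65, 6.35 and 5.54 with vehicle, a ratio of 1.86. Its log2 fold change was 1.08, 1.16, 0.94 and 0.78 at 3, 6, 12 and 24 h (SE 0.1, adjusted p = 5.29e-08, 2.92e-09, 6.08e-08 and 3.4e-07 from limma), and these calls held under all 18 alternatives at each time.

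TRIB3 (chr20:343479-378203, + strand), a pseudokinase that restrains AKT and feeds back on ATF4, differed late. Its vehicle level was flat, between 6.03 and 6.46 FPKM at the 4 times, and its CBD mean was 6.73, 8.13, 8.91 and 12.4 FPKM. At 24 h the CBD replicates were at 15.3, 10.04, 15.4 and 9.01 FPKM. The log2 fold change was 0.05 at 3 h and 0.33 at 6 h, not called (adjusted p = 0.835 and 0.043 from limma), and 0.47 at 12 h and 0.90 at 24 h, called (adjusted p = 0.00268 and 2.82e-07). The call at 12 h was lost without CBD 12 h replicate 2 (adjusted p = 0.011) or replicate 3 (0.0137), over a range of 0.00123 to 0.0137 for all alternatives.

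SESN2 and DDIT4 both encode inhibitors of mTORC1 signalling, and their messages behaved differently. SESN2 (chr1:28586029-28609002, + strand) was low, at 1.25 to 1.403 FPKM in the vehicle means and at 2.23, 2.48, 2.42 and 3.21 FPKM in the CBD means. Its groups did not overlap at any time, and it was called at all 4 (log2 fold change of FPKM + 1 of 0.50, 0.62, 0.55 and 0.78, SE 0.1, adjusted p = 0.00374, 0.000114, 0.000194 and 5.88e-07 from limma). Adding 1 understates the change of so low a gene, and its ratio of means was 1.74, 1.98, 1.83 and 2.29. The call at 3 h was lost without CBD 3 h replicate 2 or 3 or vehicle 3 h replicate 2, 3 or 4 (adjusted p = 0.0113 to 0.0156, over a range of 0.00112 to 0.0156 for all alternatives).

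DDIT4 (chr10:74033678-74035794, + strand) was called against vehicle at no time. At 3 h its CBD replicates were at 21.5, 20.6, 20.9 and 19.5 FPKM and its vehicle replicates at 13.6, 13.2, 14.4 and 15.6, with no overlap (log2 fold change 0.51, SE 0.15, adjusted p = 0.0365 from limma). At 24 h the CBD replicates were at 65.7, 38.2, 63.6 and 39.1 and the vehicle replicates at 62.0, 54.2, 53.7 and 47.4, so that 2 CBD samples lay above and 2 below all vehicle samples. The log2 fold changes at 6, 12 and 24 h were 0.06, 0.02 and -0.11 (95% intervals -0.25 to 0.37, -0.29 to 0.33 and -0.42 to 0.20). The value at 24 h turned above 0 without CBD 24 h replicate 2 (0.016) and without replicate 4 (0.0058), neither called.

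PPP1R15A (chr19:49375469-49379316, + strand), the inducible phosphatase subunit GADD34 that reverses eIF2 phosphorylation, was called at 24 h only. At 24 h its CBD replicates were at 4.47, 3.87, 4.69 and 3.498 FPKM and its vehicle replicates at 3.27, 3.06, 3.17 and 2.91 (log2 fold change 0.32, SE 0.052, adjusted p = 1.23e-05 from limma). At 3, 6 and 12 h the log2 fold changes were 0.07, -0.09 and 0.07, with 95% intervals of -0.04 to 0.17, -0.20 to 0.02 and -0.04 to 0.18.

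The difference between CBD and vehicle was then compared between times. From 3 to 6 h, 0 of the 10 genes changed in their CBD effect in limma, beside 2.1% of all genes. At an unadjusted p under 0.05, 5 did (ATF4, ATF3, DDIT4, PPP1R15A and CEBPB), beside 20.2% of all genes, and no alternative called any. From 6 to 24 h, the effect was larger for 4 of the 10: DDIT3 by 0.84 (SE 0.15, adjusted p = 9.83e-05), ATF5 by 0.77 (SE 0.21, adjusted p = 0.0069), TRIB3 by 0.57 (SE 0.16, adjusted p = 0.00896) and PPP1R15A by 0.41 (SE 0.074, adjusted p = 0.000123), beside 20.5% of all genes called and 10.9% called larger. DDIT3 and PPP1R15A held under each alternative in which they were tested. For ATF5 the call was lost without CBD 6 h replicate 1, 3 or 4, vehicle 6 h replicate 1 or 2, CBD 24 h replicate 1 or 3, or any of the 4 vehicle 24 h replicates (adjusted p = 0.0105 to 0.0202, with 0.000547 to 0.0489 over all alternatives). For TRIB3 it was lost without the same 11 libraries or vehicle 6 h replicate 3 or 4 (adjusted p = 0.0127 to 0.0262, with 0.000693 to 0.0373 over all alternatives). The effect on CHAC1 was 0.38 smaller at 24 h than at 6 h and that on ATF4 0.03 larger, and neither was called (adjusted p = 0.0438 and 0.725), although CHAC1 was called smaller with the replicate block (adjusted p = 0.00876, in a range up to 0.121). The effect on CEBPB was 0.33 larger and not called (adjusted p = 0.0119), but passed the threshold in 6 of 26 alternatives (adjusted p = 0.00501 to 0.033 over all of them). Under median-ratio scaling, the calls of all genes from 6 to 24 h were 38% larger, in place of 52.9%, and 3 of the 10 genes were called.

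Vehicle cultures alone changed between 3 and 24 h. Of the 10 genes, 3 were called, all higher: DDIT4 by 1.86 (SE 0.15, adjusted p = 3.25e-11 from limma), DDIT3 by 0.61 (SE 0.11, adjusted p = 1.34e-05) and ATF3 by 0.52 (SE 0.077, adjusted p = 1.33e-06), beside 57.8% of all genes called and 26.6% called higher. DDIT4 in vehicle went from 14.2 ± 1.04 to 25.1 ± 5.29, 31.1 ± 1.10 and 54.3 ± 5.98 FPKM (SD, n = 4) over the 4 times. DDIT3 went from 9.15 to 14.5 FPKM and ATF3 from 3.41 to 5.34. CHAC1, CEBPB, SESN2, TRIB3 and PPP1R15A had log2 differences between -0.08 and 0.08, and ATF4 and ATF5, at 0.09 and -0.35, were not called (adjusted p = 0.0375 and 0.0416). Time in culture and time after the addition of ethanol cannot be told apart here, since no untreated cultures were among the samples.

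At 24 h the CBD replicates fell into the same order for all 10 genes: replicates 1 and 3 were the 2 highest in each. Among all genes tested these 2 replicates were the highest pair for 21.5%, and the other pairs of replicates for 11.6% to 21.0%, and the share for replicates 1 and 3 was close to that of replicates 2 and 3 (21.0%). The lower of replicates 1 and 3 exceeded the higher of replicates 2 and 4 by 2.00 times for ATF5, 1.63 for DDIT4, 1.52 for TRIB3 and SESN2, 1.28 for CHAC1, 1.27 for ATF3, 1.17 for DDIT3, 1.16 for PPP1R15A, 1.13 for CEBPB and 1.04 for ATF4. A gap of over 1.5 times in this direction was found for 36 genes (0.285% of those tested), and one in the opposite direction for 31 genes (0.246%), with 0 of the 10 among them. Of the 36 genes, 26 are microRNA or small nucleolar RNA genes by symbol, whose FPKM are unsteady, 4 are ATF5, DDIT4, TRIB3 and SESN2, and the other 6 are the metallothionein gene MT1E (3.40, 1.28, 5.36 and 1.53 FPKM in replicates 1 to 4), ABHD14A-ACY1, FAM133DP, HERC2P10, PHOSPHO2-KLHL23 and TMEM56-RWDD3. The relative depth of CBD 24 h replicates 1 to 4 was 1.02, 1.07, 0.979 and 0.936, and its part in the order was not tested. This order was noticed in the values, so it carries no test, and no label ties replicates 1 and 3 together.

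**Figure D3:**
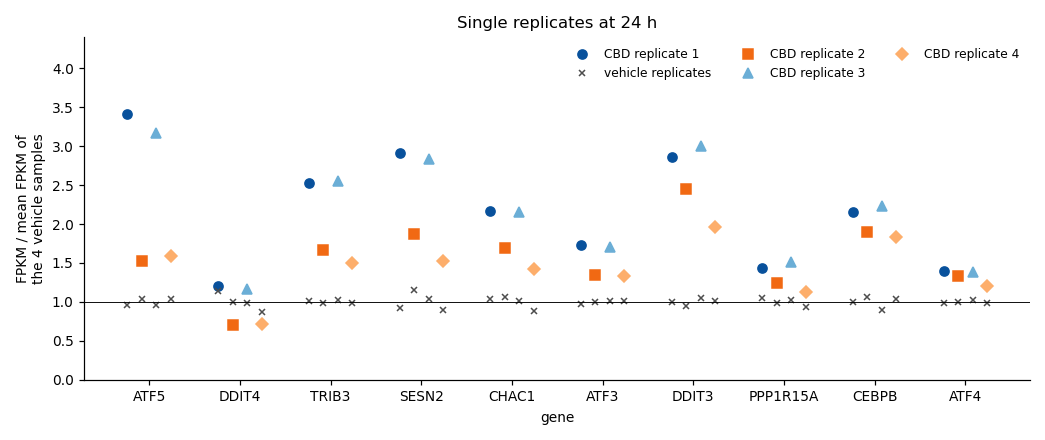
FPKM of each replicate at 24 h divided by the mean FPKM of the 4 vehicle samples (y axis), for the 10 genes ordered by the gap between CBD replicates (x axis), with CBD replicates 1 and 3 in blue, 2 and 4 in orange, and vehicle replicates as crosses. CBD replicates 1 and 3 are above 2 and 4 in all 10 genes, and for DDIT4 the pairs lie on either side of vehicle.

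Shared orders were seen at earlier times as well. At 6 h CBD replicate 2 was the highest of its group for all 10 genes, beside 24.1% of all genes tested, and at 12 h CBD replicates 2 and 3 were the highest pair for 9 of 10, beside 22.3%. In the vehicle groups no pair was highest for more than 5 of the 10 genes. The SD on the log2 scale was larger with CBD than with vehicle for 4, 9, 10 and 10 of the genes at 3, 6, 12 and 24 h, beside 65.7%, 60.4%, 50.0% and 58.1% of all genes. The median ratio of the SDs was 0.904, 2.29, 2.30 and 3.79 for the 10 genes and 1.32, 1.18, 1.01 and 1.14 for all genes. The fit shares 1 estimate of spread per gene over all 8 groups. Its SEs, intervals and p-values therefore do not show the wider spread of the 10 genes with CBD at 24 h.

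Within groups the levels of the 10 genes moved together in CBD samples, while in vehicle samples their correlations lay on both sides of 0. Deviations from the group means had a median Pearson's r of 0.77 over the 45 pairs of these genes in the 16 CBD samples, with all 45 above 0 (range 0.42 to 0.98). In the 16 vehicle samples the median was 0.05, with 26 of 45 above 0 (range -0.64 to 0.61). Over all pairs of genes tested the medians were 0.02 and 0.01. Without the 24 h samples the median of the 45 pairs was 0.70 in 12 CBD samples and 0.04 in 12 vehicle samples. The points share their libraries, so these values are a description. TRIB3 and SESN2, on chromosomes 20 and 1, had the highest r of the 45 pairs in CBD samples.

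**Figure D4:**
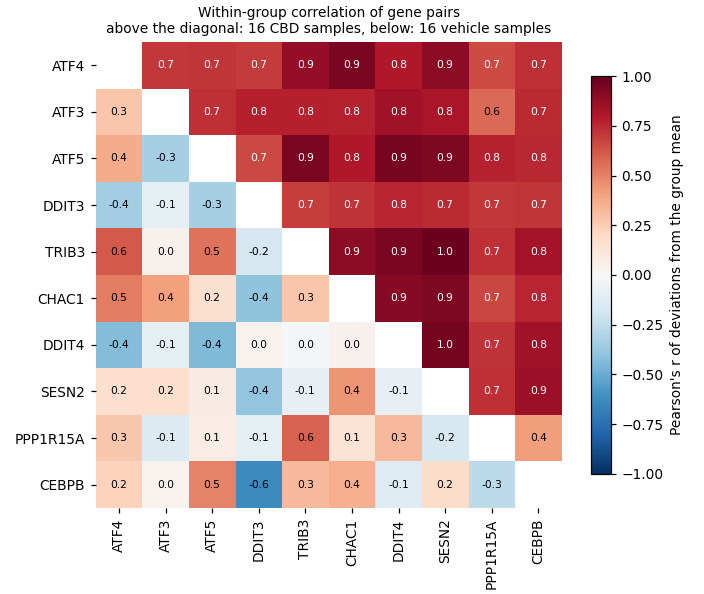
Pearson's r between the deviations of gene pairs from their group means on the log2(FPKM + 1) scale (color), over 16 CBD samples above the diagonal and 16 vehicle samples below it. All 45 CBD values are above 0 and the vehicle values lie on both sides of it.

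The other genes of the pathway were read from lists of known members. The list around eIF2 phosphorylation held 4 kinases, their regulators, phosphatase subunit PPP1R15B, and the subunits of eIF2 and eIF2B. Of these 17 genes, 3 were called lower at 6 h in limma, beside 6.13% of all genes. At 24 h, 7 were called higher and 3 lower, beside 20.8% and 21.3% of all genes, and the median difference was 0.08 on the log2 scale. The eIF2 subunit genes EIF2S2 and EIF2S3 were higher by 0.30 and 0.23 and the eIF2B subunit gene EIF2B3 by 0.29 at 24 h. The eIF2B genes did not share a direction. EIF2B2 was called higher as well (0.18), and the 3 called lower were EIF2B4 (-0.15), EIF2B5 (-0.11) and EIF2B1 (-0.11). Of the kinase genes, EIF2AK1 (HRI) was called lower at 6 and 12 h (log2 fold change -0.07 and -0.06) and EIF2AK4 (GCN2) at 6 h (-0.12), while EIF2AK2 (PKR) and EIF2AK3 (PERK) were called at none of the 4 times, with log2 fold changes of 0.08 and -0.09 at 24 h. These are mRNA levels, and kinase activity was not measured. Other bZIP factors had 10 of 25 called higher and 3 lower at 24 h, beside the same shares of all genes, and the largest log2 fold changes were those of BATF3, MAFF and CEBPG at 0.71, 0.55 and 0.42. The 3 called lower, named after their values were seen, were FOSL2 (-0.34), CREB3L4 (-0.22) and CREB3 (-0.17). At 6 and at 12 h, 4 of the 25 were called higher and 3 lower, beside 10.2% and 20.1% of all genes called. At both times the 3 called lower were JUN (-0.81 and -0.66), FOSL2 (-0.47 and -0.49) and JUND (-0.34 and -0.25), also named after their values were seen. Of the effectors' paralogs TRIB1, TRIB2, CHAC2, SESN1 and SESN3, 3 were called lower at 6 h and 2 at 24 h, beside 6.13% and 21.3% of all genes. At 24 h SESN1 was at -0.23 and TRIB2 at -0.18.

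Most genes of amino acid supply that ATF4 is known to activate were called higher from 6 h on, beside 1.18%, 4.07%, 8.85% and 20.8% of all genes called higher at 3, 6, 12 and 24 h. Amino acid synthesis and folate genes had 4, 11, 11 and 10 of 13 called higher at these times, with medians of 0.12, 0.21, 0.24 and 0.28. Asparagine synthetase ASNS went from 84.8 FPKM in vehicle to 154.7 with CBD at 24 h (log2 fold change 0.86), and the mitochondrial folate enzymes MTHFD2 and MTHFD1L were higher by 0.49 and 0.47. Amino acid transporters had 2, 8, 7 and 7 of 10 called higher, and 2 lower at 24 h, beside 21.3% of all genes called lower. The 2 called lower were SLC38A1 and SLC38A2, each at -0.10. The cystine transporter SLC7A11 was higher by 1.41 at 24 h (3.53 against 0.667 FPKM), its heavy chain SLC3A2 by 0.79 and the glutamine transporter SLC1A5 by 0.79. The vehicle means of SLC7A11 were 0.61 to 1.01 FPKM. It passed the filter on low FPKM through its CBD samples, and adding 1 understates its change. Cytosolic tRNA synthetases had 4, 6, 9 and 9 of 12 called higher, led by SARS, AARS and YARS at 0.65, 0.52 and 0.46 at 24 h. Further ATF4 and CHOP targets had 9 of 14 called higher and 1 lower at 24 h. The 1 called lower was VLDLR, which was called lower at all 4 times (-0.14, -0.26, -0.20 and -0.34 at 3, 6, 12 and 24 h). At 24 h the proapoptotic gene BBC3 was at 0.68, the autophagy receptor SQSTM1 at 0.56 and HERPUD1, of endoplasmic reticulum degradation, at 0.54. BBC3 was at 2.57 FPKM with CBD and 1.22 with vehicle at 24 h, and its earlier group means were 0.51 to 1.01. BBC3 reached the filter of a mean FPKM of 1 only through its 24 h CBD samples, so its call is a description. The replicate order at 24 h was found in these lists too, with CBD replicates 1 and 3 above 2 and 4 for 12 of 13 synthesis genes, 10 of 10 transporters, 12 of 12 tRNA synthetases and 9 of 14 further targets, of which 1 had the reverse order, but with a gap of over 1.5 times for 0 of them. Over all genes tested the order held for 2692 of 12621.

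Targets of ATF6 and XBP1, the other arms of the unfolded protein response, had 4 of 17 called higher at 6 h, beside 4.07% of all genes. At 12 h, 1 was called higher and 7 lower, beside 20.1% of all genes called. At 24 h, 3 were called higher and 9 lower, beside 20.8% and 21.3% of all genes. The chaperone HSPA5 (BiP) was higher by 0.21 at 3 h and lower at 12 h, at a log2 difference of -0.48. At 24 h HSPA5 was at 37.3 FPKM with CBD against 50.3 in vehicle (-0.42). Calreticulin CALR was then at -0.33, while XBP1 was higher by 0.31. Among p53 targets, 5 of 11 were called higher and 3 lower at 24 h, beside 20.8% and 21.3% of all genes. TP53INP1 was at -0.72, PLK3 at 0.60 and BBC3, which is also in the list above with its limit, at 0.68. HIF targets were listed because DDIT4 is one as well as an ATF4 target. Of these, 8 of 12 were called lower at 6 h and 11 of 12 at 24 h, beside 6.13% and 21.3% of all genes. NDUFA4L2, STC1 and BNIP3 were at -2.14, -1.69 and -1.24 at 24 h. In vehicle, BNIP3 was at 38.4 FPKM at 3 h and 102.9 at 24 h and STC1 at 5.01 and 8.22, while with CBD they were at 37.7 and 42.8, and at 4.85 and 1.85.

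**Figure D5:**
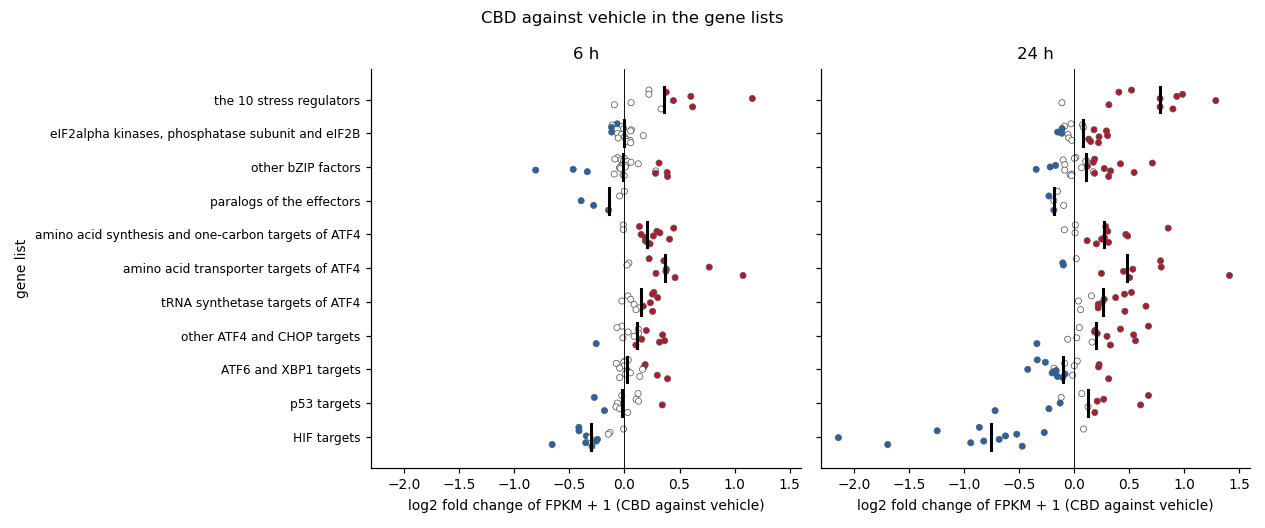
Log2 fold change of FPKM + 1, CBD against vehicle (x axis), for each tested gene of 11 lists (y axis) at 6 h and 24 h, with red points called higher, blue points called lower, open points not called and black bars for medians. The 10 stress regulators had a median of 0.36 at 6 h and 0.78 at 24 h, and HIF targets lay below 0 for 11 of 12 genes at 24 h.

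Over the 32 samples, the genes most like ATF4 in log2 level outside the 10 were ASNS (Pearson's r = 0.95), the heme oxygenase gene HMOX1 (0.95) and the peptide hormone gene ADM2 (0.94), and SESN2 and CEBPB reached 0.95 each. Those most like CHAC1 were the metallothionein genes MT1G and MT1F (0.94 and 0.93) and the glycyl-tRNA synthetase gene GARS (0.91). Those most like DDIT3 were NOB1, BEST1 and CDC42EP1 (0.97, 0.96 and 0.95). DDIT4 had an r of 0.40 with ATF4 and 0.10 with CHAC1 in level, although its deviations within groups had an r of 0.47 and 0.67 with theirs. The samples share treatment and time, so these values describe likeness of pattern only.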

How the data were processed

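RNA-Seq of 32 SK-N-BE(2) samples was used. The authors trimmed single 50-base reads with Trimmomatic, mapped these with TopHat on hg19 and deposited the FPKM that Cufflinks gave per sample; the library kit and the TopHat version are given differently by the labels and the methods. The deposited Cuffdiff comparisons (fold changes and q-values) were not used. Groups came from the labels. On the log2(FPKM + 1) scale, 8 group means were fitted by limma (version 3.58.1, eBayes with trend, R 4.3.3) to the 12621 entries whose FPKM averaged 1 or more. Benjamini-Hochberg adjustment was made over all genes for each comparison separately, and genes under 0.01 were called. The fit was tested on simulated data. The other steps ran in Python version 3.11.15 with pandas version 2.3.3, and gene positions came from GENCODE version 44 on GRCh37.

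Members, lists and tests were chosen with earlier results of these data known. Named were the 10 members in every comparison and up to 3 genes from each list. These had the largest absolute log2 fold change among genes called at 24 h (else 6 h). Kinase genes, further eIF2B genes and the 6 further genes with a replicate gap were added after their values were seen. So were the bZIP genes and the ATF4 and CHOP targets called lower. FPKM hold no counts, so no counting error is given. Alternatives were another added value, filter, scaling or spread, each time fitted alone, a replicate block, relative depth in the model and each sample left out. Leaving out 2 CBD replicates at 24 h was added after the data were seen. A marker gene of one list, and the list's summed level, are not reported here.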

Additional observations from a re-analysis of the deposited data

Results flagged for a closer look

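The CBD effect differed between 24 h and 6 h, by limma's test of the difference itself, for ATF5 (by 0.77), DDIT3 (0.84), PPP1R15A (0.41) and TRIB3 (0.57) on the log2 scale, each larger at 24 h. DDIT3 and PPP1R15A kept this call under each alternative in which they were tested. ATF5 lost it in 13 of 25 alternatives and TRIB3 in 16 of 26. Single samples stood far from the other 3 of their group by Dixon's ratio in 3 of the 80 groups of 4 looked at, where chance gives about 1 in 20: DDIT3 in vehicle 6 h replicate 2 was lowest at 9.89 FPKM, TRIB3 in the same sample was highest at 6.71 FPKM, and CEBPB in vehicle 3 h replicate 1 was highest at 8.65 FPKM.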

How the results depend on the processing

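Of 1399 values of single members under alternatives of the processing, 1323 kept their direction and their side of the threshold, 47 lost a call, 13 gained one and 16 changed sign. With each time fitted alone, the genes called fell to 29 at 3 h, 425 at 6 h and 118 for the change from 3 to 6 h (from 310, 1288 and 265), and the members called were 3 at 3 h, 2 for the change from 6 to 24 h and 5 for vehicle at 24 h against 3 h. Fewer degrees of freedom and a spread taken from the compared groups alone are both part of that alternative's construction. With relative depth in the model, 185 genes were called at 3 h. For the change from 6 to 24 h, 2 members were called without a filter on low FPKM and 2 with a mean of at least 5, which leaves out ATF5, PPP1R15A and SESN2.

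Leaving out single replicates gave 164 (without vehicle 3 h replicate 4) to 493 (without CBD 3 h replicate 1) genes at 3 h, and 152 (without CBD 3 h replicate 2) to 602 (without CBD 3 h replicate 1) for the change from 3 to 6 h. Likewise 169, 196 and 184 were called at 3 h without CBD 3 h replicate 2, CBD 3 h replicate 3 and vehicle 3 h replicate 3, and 174, 157 and 415 for the change from 3 to 6 h without vehicle 3 h replicate 2, CBD 6 h replicate 3 and CBD 6 h replicate 4. For the change from 6 to 24 h it gave 2 to 6 members, 6 without CBD 6 h replicate 2. Within each time, replicate numbers did not pair CBD with vehicle samples (deviations of 16 same-numbered pairs had an r of -0.076 to 0.094). Of 16 CBD samples, 5 were closest to their own number. An effect of replicate number shared across times was not tested. CBD replicate 4 was the lowest of its group for 8, 6, 6 and 8 members at 3, 6, 12 and 24 h. Among all genes it was lowest for 30.6% to 33.4%. Vehicle replicate 4 was lowest for 5, 1, 5 and 4 members at these times. With the replicate block, 447, 1570, 2806 and 5641 genes and 5, 5, 6 and 9 members were called at 3, 6, 12 and 24 h, 306 genes and 0 members for the change from 3 to 6 h, 2929 and 6 for that from 6 to 24 h, and 7545 and 3 in vehicle.

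Among single replicates left out, the sign turned only for values that were not called. DDIT4 ranged from -0.087 to 0.16 at 6 h, -0.0501 to 0.10 at 12 h and -0.24 to 0.016 at 24 h, TRIB3 from -0.016 to 0.097 at 3 h, and the DDIT3 change from 3 to 6 h from -0.073 to 0.096. The ATF4 change from 6 to 24 h was -0.0053 under median-ratio scaling, and under quantile normalization PPP1R15A and SESN2 in vehicle at 24 h against 3 h were at -0.065 and -0.073. The cause was not tested.

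CBD 24 h replicates 1 and 3, or 2 and 4, were left out after the data were seen. They were picked by the members' own values, so the calls are a description. Without 1 and 3, 10 members and 4181 genes were called at 24 h, DDIT4 being lower (-0.47), and the changes of ATF4 and SESN2 from 6 to 24 h were -0.039 and -0.13. For that change 3 members were then called, DDIT3 and PPP1R15A larger and CHAC1 smaller (-0.60), and the calls of ATF5 (0.29, adjusted p = 0.0596) and TRIB3 (0.25, 0.132) were lost. Without 2 and 4, 9 members and 4262 genes were called at 24 h and 7 members for the change from 6 to 24 h, with DDIT4 at 0.25 at 24 h and 0.19 for that change. FPKM give no counting error, which limits what can be said of SESN2, PPP1R15A and other low genes.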
